A study of Mus musculus with 28 samples.

Results

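DKO 3LL cells, which lack KEAP1 and carry an edited NRF2 gene, were compared with WT 3LL cells in culture. The comparison takes 4 DKO and 4 WT libraries, 8 of the 28 RNA-seq libraries of the series, and describes all rows of the expression table that carry a gene symbol, 18509 of 43143. 3LL is a mouse Lewis lung carcinoma line, labelled male. The WT cells are the parental line. The KEAP1-KO line was made from WT cells by CRISPR-Cas9 editing of Keap1, and the DKO line was made by editing Nrf2 (Nfe2l2) in that KEAP1-KO line, so both lines share 1 edited Keap1 locus. Each edited line was grown from a single colony, and genotype and clone cannot be told apart. The 4 libraries of KEAP1-KO cells are given beside the others, because DKO against WT alone does not say at which of the 2 edits a value moved. Neither the labels nor the methods say that the libraries of a group came from separate cultures, so the p-values measure the spread between these libraries, which may be technical. The label on RNA extraction names livers, whereas the titles and the study's methods name cultured cells.

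KEAP1 is the adaptor of a ubiquitin ligase that holds NRF2 at a low level in unstressed cells. When KEAP1 is lost, NRF2 escapes degradation, pairs with small MAF proteins and binds antioxidant response elements near genes for glutathione synthesis, thioredoxin recycling, quinone and aldehyde detoxification, NADPH supply and iron storage. Cells with an intact KEAP1 still hold some NRF2, and the DKO line, which has neither protein, offers a measure of how much of a target's level in WT cells is lost together with NRF2. The same comparison also holds every change that arose with the KEAP1 edit, its clone or the later clone and that did not return to the WT level.

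The cell libraries held between 5808974 and 7524293 recovered reads, and between 19.4% and 23.5% of the table's rows were at 0 in a library. Values are log2(normalized count + 4), so a row without reads has a value of 2 and differences of low rows are understated. A row is either a whole gene (a gene row) or a single transcript of a gene, often a retained intron or a processed transcript. The kind is named below for many rows but not for all. Of the tested rows with a symbol, 7769 are single transcripts, so a value without a named kind may be of 1 transcript. Of 29744 rows tested, 5254 (17.7%) were called at an adjusted p under 0.05 (limma with Benjamini-Hochberg adjustment over all rows tested), of which 2517 (8.46%) were higher and 2737 (9.20%) lower in DKO cells. Among the 13445 tested rows with a symbol, 1744 (13.0%) were called higher and 1774 (13.2%) lower, with a median difference of 0.00315 on the log2 scale. At an absolute log2 difference of 1 or more, 441 rows with a symbol (3.28%) were higher and 486 (3.61%) were lower. The values of the 4 DKO and 4 WT libraries did not overlap for 29.8% of the rows with a symbol. Side by side, 24.1% of the rows with a symbol were called between KEAP1-KO and WT cells and 14.4% between DKO and KEAP1-KO cells.

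The edited genes were read first. Keap1 (ENSMUSG00000003308, gene row) had log2 values of 9.47, 9.35, 9.56 and 9.42 in WT cells, 7.65, 7.54, 7.65 and 7.52 in KEAP1-KO cells and 7.31, 7.30, 7.47 and 7.31 in DKO cells. Every DKO library lay below every WT library, by a mean of 2.10 (standard error 0.0671, adjusted p = 8.2e-10, limma). For Nfe2l2, the NRF2 gene, the table has a processed transcript (ENSMUST00000152371), with 5.60, 5.10, 5.35 and 5.22 in WT cells and 4.88, 5.46, 4.58 and 5.32 in DKO cells. The groups overlapped (difference -0.26, adjusted p = 0.48, limma). This single transcript does not check the edit of Nrf2.

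The 4 listed NRF2 targets below, whose promoter holds the core of the antioxidant response element, TGACNNNGC on either strand, are shown because their rows fell in DKO cells. The sequences are from RefSeq (GRCm38.p6), 5′ to 3′ on the strand of the gene, 60 bases each and all before the start site. Capitals mark the match, which in all 4 lies on the opposite strand, so the core is read as its reverse complement.
Gclm, glutamate-cysteine ligase modifier, chr3:122245398-122245457, plus strand: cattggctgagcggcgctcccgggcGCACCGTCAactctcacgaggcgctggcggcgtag
Prdx1, peroxiredoxin, chr4:116685441-116685500, plus strand: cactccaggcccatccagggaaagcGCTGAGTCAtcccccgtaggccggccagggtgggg
Txnrd1, thioredoxin reductase, chr10:82859089-82859148, plus strand: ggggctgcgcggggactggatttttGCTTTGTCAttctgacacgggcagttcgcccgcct
Pir, pirin, chrX:164269192-164269251, plus strand: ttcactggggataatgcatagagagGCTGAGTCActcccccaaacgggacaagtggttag
The match begins 134 bases before the start site in Gclm, 133 in Prdx1, 92 in Txnrd1 (at the start of a shorter transcript) and 214 in Pir. In Prdx1 and Pir the core reads TGACTCAGC and so also contains the AP-1 type site TGANTCA, which is its own reverse complement apart from the middle base.

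Across the table the core was about as frequent among rows called higher as among rows called lower. Windows of 250 bases before to 50 after the start site held TGACNNNGC in 14.0% of 27025 genes with a promoter sequence. Among rows with a promoter sequence the share was 17.5% of those called lower in DKO cells, 18.9% of those called higher and 16.1% of those not called. The AP-1 type site was present in 7.16%, 6.48% and 6.28% of the same groups, and in 8.97% of all genes. Of the listed NRF2 targets that were tested and have a window, 14 of 38 (36.8%) held TGACNNNGC, and 8 of the 20 called lower did. No match was found in the windows of Nqo1 and Gstm1, which says only that these letters are not in these windows. The matches are descriptions of sequence, and binding was not measured.

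Listed NRF2 target genes were mostly lower in DKO than in WT cells. Of 65 genes in 6 functional lists, 56 are in the table and 45 passed the filter on low values, and of these 23 (51.1%) were called lower against 13.2% of all tested rows with a symbol, 5 were called higher (Osgin1, Adh7, Akr1b8, Me1 and Hmox1), and 17 were not called. The median difference of the 45 rows was -0.55, against 0.00315 over all rows with a symbol. Many of these calls are on single-transcript rows, and with gene rows only 5 targets were called lower and 1 higher. For orientation, 34 of the same 45 rows were called higher in KEAP1-KO than in WT cells, against 12.7% of rows with a symbol, and 38 were called lower in DKO than in KEAP1-KO cells, against 7.64%. These comparisons share libraries with DKO against WT and are not separate evidence. The lists were written with earlier results of these data known.

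Among the detoxification enzymes, Gstm1 and Nqo1 fell the most. Gstm1, a mu-class glutathione transferase (processed transcript ENSMUST00000198532), had 9.36, 9.29, 9.41 and 9.37 in WT cells and 5.40, 5.31, 5.27 and 5.46 in DKO cells. The groups lay far apart, and the difference was -4.0 (adjusted p = 7e-13, limma; standard error 0.0554), a 17.6-fold lower normalized count. KEAP1-KO cells had a mean of 11.04. Nqo1, the NAD(P)H quinone reductase that is a standard readout of NRF2 (gene row), had 9.15, 8.90, 9.06 and 8.95 in WT cells, 12.31, 12.54, 12.44 and 12.53 in KEAP1-KO cells and 6.86, 6.78, 6.79 and 6.65 in DKO cells. WT cells therefore lay between the other genotypes, and DKO cells were 4.88-fold below WT (difference -2.24, standard error 0.0714, adjusted p = 8.2e-10, limma). Pirin (Pir), prostaglandin reductase (Ptgr1), biliverdin reductase B (Blvrb) and esterase D (Esd) fell by 1.56, 1.37, 1.28 and 1.21. The glutathione transferases Gsta4, Gstp1 and Gstm2 and the microsomal enzyme Mgst2 fell by 1.05, 0.86, 0.73 and 0.70. Gstm, Gsta and Gstp genes have close paralogs, and reads may have been split between them. The call of Gstp1 was lost without WT library 2 (-0.74) or WT library 4 (-0.81), and also without a filter, with only the 2 groups, without the variance trend, with voom weights and with the replicate block.

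Some of the strongest NRF2 targets had almost no transcript to lose in WT cells. Gsta2 (protein coding transcript) was at 2.0 in every WT and every DKO library and had a mean of 6.09 in KEAP1-KO cells. Gsta1, Mgst1 and Aldh3a1, further glutathione transferases and an aldehyde dehydrogenase, had WT means of 2.27, 2.42 and 2.70, DKO means of 2.08, 2.35 and 2.13, and KEAP1-KO means of 7.01, 6.92 and 7.32. None of these 4 rows was called between DKO and WT cells at these counts, although Aldh3a1 was called lower with quantile normalization or with a pseudocount of 0.4. In contrast, Adh7, an alcohol dehydrogenase (gene row), was higher in DKO cells, with 4.06, 3.63, 4.14 and 4.21 against 2.65, 2.34, 2.62 and 2.85 in WT cells and a mean of 9.22 in KEAP1-KO cells. The difference was 1.39 (standard error 0.161, adjusted p = 5.3e-05, limma), so this row stayed above the WT level in the absence of NRF2. The aldo-keto reductase Akr1b8 (processed transcript) was higher in DKO cells by 0.41.

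Genes of glutathione synthesis and thioredoxin recycling that were called lower fell by smaller amounts than Gstm1 and Nqo1. Of 6 glutathione genes tested, 4 (66.7%) were called lower and none higher, against 13.2% and 13.0% of all rows with a symbol. Gclm, the modifier subunit of glutamate-cysteine ligase (processed transcript), had 6.62, 6.46, 7.36 and 7.01 in WT cells and 5.55, 4.87, 6.11 and 5.83 in DKO cells, and was lower by a mean difference of -1.27 (adjusted p = 0.0039, limma, with a standard error of 0.257). Its catalytic partner Gclc fell by 0.72, the cystine transporter Slc7a11 by 0.42 and glutathione reductase Gsr by 0.37. Of 7 antioxidant genes, 4 (57.1%) were called lower and 1 (14.3%), Osgin1, higher. Thioredoxin, Txn1 (gene row), had 12.86, 12.54, 12.67 and 12.68 in WT cells and 11.60, 11.57, 11.40 and 11.57 in DKO cells. It fell by 1.15 (adjusted p = 4.9e-07, limma), and with a mean of 12.20 it was also below WT in KEAP1-KO cells, where NRF2 is active. Thioredoxin reductase Txnrd1, sulfiredoxin Srxn1 and peroxiredoxin Prdx1 fell by 0.77, 0.55 and 0.32 and had KEAP1-KO means above the WT means. The call of Prdx1 was lost without WT library 1 (-0.25), DKO library 3 (-0.27) or DKO library 4 (-0.32), and also without a filter, without the variance trend and with the replicate block. Osgin1, an oxidative stress growth inhibitor, was higher by 0.49, and Prdx6 had a difference of 0.02 that was not called.

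**Figure D1:**
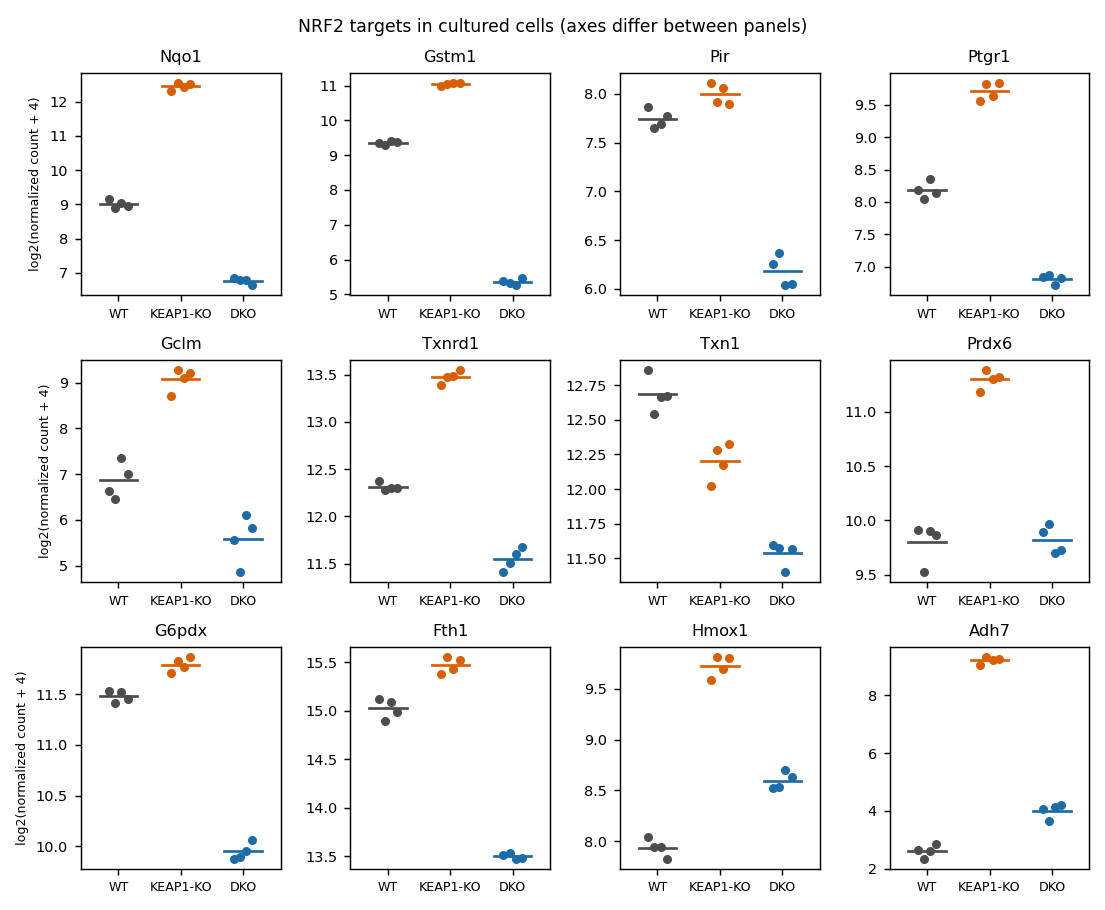
Log2(normalized count + 4) of 12 listed NRF2 targets in each of the 4 WT, 4 KEAP1-KO and 4 DKO cell libraries, with 1 point for each library and a bar at the group mean. Gstm1 falls from a WT mean of 9.36 to 5.36 in DKO cells, whereas Adh7 rises from 2.62 to 4.01 and Prdx6 stays at 9.80 and 9.82.

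Single genes of NADPH supply and iron storage had some of the clearest falls. Of 5 NADPH and pentose phosphate genes tested, 3 (60%) were called lower and 1 (20%) higher. Of 5 iron and heme genes, 2 (40%) were called lower and 1 (20%) higher. These shares stand beside 13.2% and 13.0% of all rows with a symbol. Glucose-6-phosphate dehydrogenase, G6pdx (protein coding transcript), the entry enzyme of the pentose phosphate pathway, had 11.54, 11.41, 11.52 and 11.45 in WT cells, 11.71, 11.83, 11.77 and 11.87 in KEAP1-KO cells and 9.88, 9.90, 9.96 and 10.06 in DKO cells. The fall from WT to DKO (1.53, standard error 0.051, adjusted p = 1.1e-09, limma) was larger than the rise from WT to KEAP1-KO (0.31). Ferritin heavy chain Fth1 (protein coding transcript) showed the same order, with 15.12, 14.90, 15.09 and 14.99 in WT cells and 13.51, 13.53, 13.47 and 13.48 in DKO cells, a 2.88-fold lower normalized count, and a KEAP1-KO mean of 15.47. For these genes most of the span between KEAP1-KO and DKO cells was already present in WT cells. Transketolase (Tkt) and 6-phosphogluconate dehydrogenase (Pgd) fell by 1.20 and 0.52. Heme oxygenase Hmox1 (retained intron), which degrades heme, was higher in DKO cells, with 8.52, 8.53, 8.70 and 8.63 against 8.04, 7.94, 7.94 and 7.83 in WT cells (difference 0.66, adjusted p = 2.4e-05, limma). Malic enzyme Me1 was higher by 0.71, with a highest WT value equal to the lowest DKO value (6.09), and was close to the threshold (adjusted p = 0.048, limma). Its call was lost without any 1 of the libraries other than WT 3 and DKO 3, with differences between 0.51 and 0.79. It was also lost with the replicate block, without a filter, with a pseudocount of 0.4, with only the 2 groups, without the variance trend and with voom weights (0.71 to 0.80).

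None of the 12 tested regulators and partners of NRF2 was called (0 of 12 higher or lower, against 13.0% and 13.2% of all rows with a symbol). After centring each library within 10 parts of each chromosome, a setting added later, 2 of the 12 were called higher, Dpp3 and Btrc, both named after their values were seen. The 12 rows include the repressor Bach1, with a difference of 0.85 and an adjusted p of 0.07 (limma), and the small MAF protein Mafg with -0.22. Slpi, Il7 and Serpinb9e, which encode a secreted protease inhibitor, interleukin 7 and an intracellular serpin, were also not called. Slpi (gene row) had 5.26, 5.0, 5.31 and 5.30 in WT cells and 5.18, 5.15, 4.81 and 4.85 in DKO cells, against a mean of 8.80 in KEAP1-KO cells. Its groups overlapped, so the level without NRF2 was not distinguishable from that of WT cells (difference -0.22, adjusted p = 0.26, limma). Il7 (processed transcript) had 3.15, 2.84, 3.03 and 2.71 in DKO cells and 2.36, 2.0, 2.62 and 2.34 in WT cells, which do not overlap, and missed the threshold (difference 0.60, adjusted p = 0.058, limma), which it passed without WT library 3 (0.70), without a filter, without the variance trend, among rows with a symbol only and with a pseudocount of 0.4 (1.69). Bach1 likewise passed without WT library 4 (1.11), among rows with a mean of at least 25 normalized counts and among rows with a symbol only (0.85 each). Of the 6 clade B serpins tested, only Serpinb9b was called, a share (16.7% higher) near the 13.0% of all rows. It had 10.13, 10.22, 10.13 and 10.21 in DKO cells against 6.75, 6.78, 6.68 and 6.65 in WT cells and a KEAP1-KO mean of 11.02, so 3.46 of the rise was still present without NRF2. Serpinb9 genes are close paralogs, and reads may be shared between them.

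With listed genes included, 93 rows were lower in DKO and higher in KEAP1-KO than in WT cells. They are among 2755 called rows with a named gene and groups that do not overlap. The count of 93 follows from the definition, and its comparisons share libraries. The 10 lowest were Gstm1, Mfap3l, Ak1, F3, Nqo1, Adgre5, Cd300lb, Trim54, Sord and Clec4d. Sorbitol dehydrogenase, Sord (gene row), had 8.54, 8.52, 8.54 and 8.42 in WT cells, a KEAP1-KO mean of 10.01 and 6.22, 6.54, 6.72 and 6.55 in DKO cells. Trim54, a muscle-type RING finger protein (gene row), had a WT mean of 5.97, a KEAP1-KO mean of 8.73 and a DKO mean of 3.92. The adenylate kinase Ak1 (protein coding transcript) fell by 2.28 and tissue factor F3 (retained intron) by 2.25. For Mfap3l and F3 the fall from WT to DKO was larger than the rise from WT to KEAP1-KO, which was 0.43 and 0.32.

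Libraries of tumors, which share none with the cells, gave another set of rows, called at both edits. The lines and clones are those of the cells, so genotype and clone cannot be told apart here either. In those tumors, grown from the same lines in mice, 400 rows with a symbol tested in both fits were called higher in KEAP1-KO than in WT tumors (Experiment A) and lower in DKO than in KEAP1-KO tumors (Experiment B). Of all rows with a symbol tested in tumors, 7.73% and 7.12% were called in these respective directions. In each experiment both genotypes were grown in opposite flanks of the same mice, and these calls do not take the shared host into account. Of these 400, 87 (21.8%) were called lower in DKO than in WT cells, against 13.6% of the 12821 rows tested in both, and 125 (31.2%) were called higher, against 13.3%. The median difference of the 400 rows between DKO and WT cells was 0.0776, with 169 below 0. Rows of this set were therefore called in both directions in cells, and the higher direction was the more frequent. Of all 1134 rows called higher in KEAP1-KO than in WT tumors, 41.4% were higher and 9.52% lower in DKO than in WT cells. Requiring a call lower in DKO tumors thus went with a smaller higher share and a larger lower share. The 87 lower rows held TGACNNNGC in 27.7% of the 65 with a promoter window and the AP-1 type site in 26.2%, whereas the 125 higher rows held them in 14.8% and 6.82% of 88. With only the bases before the start site the shares were 20% and 23.1% against 10.2% and 6.82%. This difference was seen after the data were examined and was not tested. Listed genes aside, the lower rows include Sord, Mfap3l, Ak1, the growth factor betacellulin (Btc, retained intron, -1.59), the glycogen branching enzyme Gbe1 (retained intron, -1.44), aldehyde oxidase Aox1 (retained intron, -1.02) and pyruvate carboxylase Pcx (gene row, -0.86).

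Many rows differed little between the 2 edited lines. Of the 2755 rows, 1525 differed by under 0.5 between DKO and KEAP1-KO cells without a call, 737 of them above and 788 below WT in DKO cells. Of the 1525, 1182 were also called between KEAP1-KO and WT cells in the same direction. The count of 1525 again follows from the definition. Eya2, a transcriptional coactivator and phosphatase (processed transcript), had 7.38, 7.24, 7.28 and 7.48 in WT cells, 2.55, 2.73, 2.77 and 2.53 in KEAP1-KO cells and 2.79, 2.0, 3.36 and 2.71 in DKO cells. The difference of -4.63 (standard error 0.252, adjusted p = 8.5e-08, limma) corresponded to a 54.0-fold lower normalized count. This fold is imprecise, since the DKO values of 2.0 to 3.36 lie near that of a row without reads. Podoplanin, Pdpn (gene row), a membrane glycoprotein of squamous and stromal cells, fell from 7.38, 7.35, 7.30 and 7.28 in WT cells to 3.44, 3.51, 3.50 and 3.65 in DKO cells. The homeobox factor Nkx2-2 (gene row) had 99 reads over the 4 WT libraries and none in any KEAP1-KO or DKO library, and was at least 36.9-fold lower against a floor of 3 reads over the group. Fatty acid elongase Elovl7 was also without reads in both edited lines. Other falls of this kind were Fam131b, Dennd11, Lrp4, Galnt15 and Psd4, with differences between -3.89 and -3.22. Of these 9 named falls, 8 were also called lower in DKO tumors of Experiment B than in WT tumors of Experiment A, against 9.33% of rows with a symbol, and Galnt15 was not.

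Rises that were kept included transcription factors that WT cells express little. Map7d2, a microtubule-associated protein (protein coding transcript), had no read in any WT library and 5.78, 5.97, 6.02 and 6.27 in DKO cells, at least 74.3-fold higher, with a KEAP1-KO mean of 6.04. Pax5, known as the B cell lineage factor (gene row), had 3.83, 3.78, 4.18 and 3.88 in WT cells and 7.26, 7.04, 7.45 and 7.42 in DKO cells. Its KEAP1-KO mean of 7.23 was within 0.06 of the DKO mean. The estrogen receptor Esr1 (processed transcript) rose by 2.85, Zfp979 by 2.78, the ubiquitin ligase Hecw2 by 2.62, mesothelin (Msln, retained intron) by 2.57 and Btg3 by 2.49. Slc45a3, Rnf165 and Per1 rose by 2.42, 2.39 and 2.32. In tumors, Map7d2, Pax5, Esr1, Zfp979, Hecw2, Msln and Btg3 were also called higher in DKO tumors of Experiment B than in WT tumors of Experiment A, by between 1.10 and 3.90, against 6.74% of rows with a symbol. Slc45a3, Rnf165 and Per1 were not called there.

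Other rows changed at the second edit or in steps. The DKO cells alone carried Zdhhc14, a palmitoyltransferase (gene row), with 7.14, 7.11, 7.26 and 7.38 and no read in any WT or KEAP1-KO library, at least 178-fold higher. Gremlin, Grem1 (gene row), a secreted BMP antagonist, had 8.91, 8.60, 9.05 and 8.89 in WT cells, a KEAP1-KO mean of 8.71 and 11.92, 11.91, 11.94 and 11.94 in DKO cells. The DKO libraries agreed within 0.03 and lay 8.38-fold above WT (adjusted p = 1.5e-10, limma). Among the 2755 rows, 496 were called between DKO and KEAP1-KO cells without a call between KEAP1-KO and WT cells, 266 above WT and 230 below. In steps, Aqp1, the water channel (gene row), went from 9.04, 8.91, 8.95 and 8.80 in WT cells to 6.24, 6.32, 6.13 and 6.43 in KEAP1-KO cells and 3.30, 4.45, 4.22 and 4.14 in DKO cells. With a difference of -4.90 it was the lowest of the named genes. The RNA-binding protein Celf2 (-4.77), the sarcomere protein Ldb3 (-4.43), Arhgdib (-4.14) and the inhibitor of differentiation Id3 (-4.09) followed the same order. Opn4 (-4.25) and Rapgef4 (-3.96) did too, with no Opn4 read in any DKO library. Adamts1, a matrix protease (protein coding transcript), rose in steps from no read in WT cells to a KEAP1-KO mean of 5.14 and a DKO mean of 6.98, at least 151-fold above WT.

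The remaining high rows were Ccbe1 (4.45), Igsf5 (3.95), Yy2 (3.71), Dtna (3.40), Fstl1 (3.28), Slc2a2 (3.27), Tmprss11b (3.25), Cdh5 (3.17) and Klra2 (3.06). Yy2, a retrogene of the YY1 family (gene row), was at 5.60 in 1 WT library and at 2.0 in the other 3, and at 7.29, 6.94, 6.23 and 5.96 in DKO cells. The KEAP1-KO libraries had 2.0, 6.37, 4.83 and 7.02, so this row varied between libraries of 1 line, and its call (adjusted p = 0.027, limma) rests on a standard error of 1.04. The call was lost without WT library 2, 3 or 4 (3.41 each), DKO library 1 (3.48) or DKO library 2 (3.59), and also without a filter, with voom weights (5.82) and with the replicate block. Fstl1, a secreted glycoprotein, had a WT mean of 6.51, a KEAP1-KO mean of 8.64 and a DKO mean of 9.79.

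**Figure D2:**
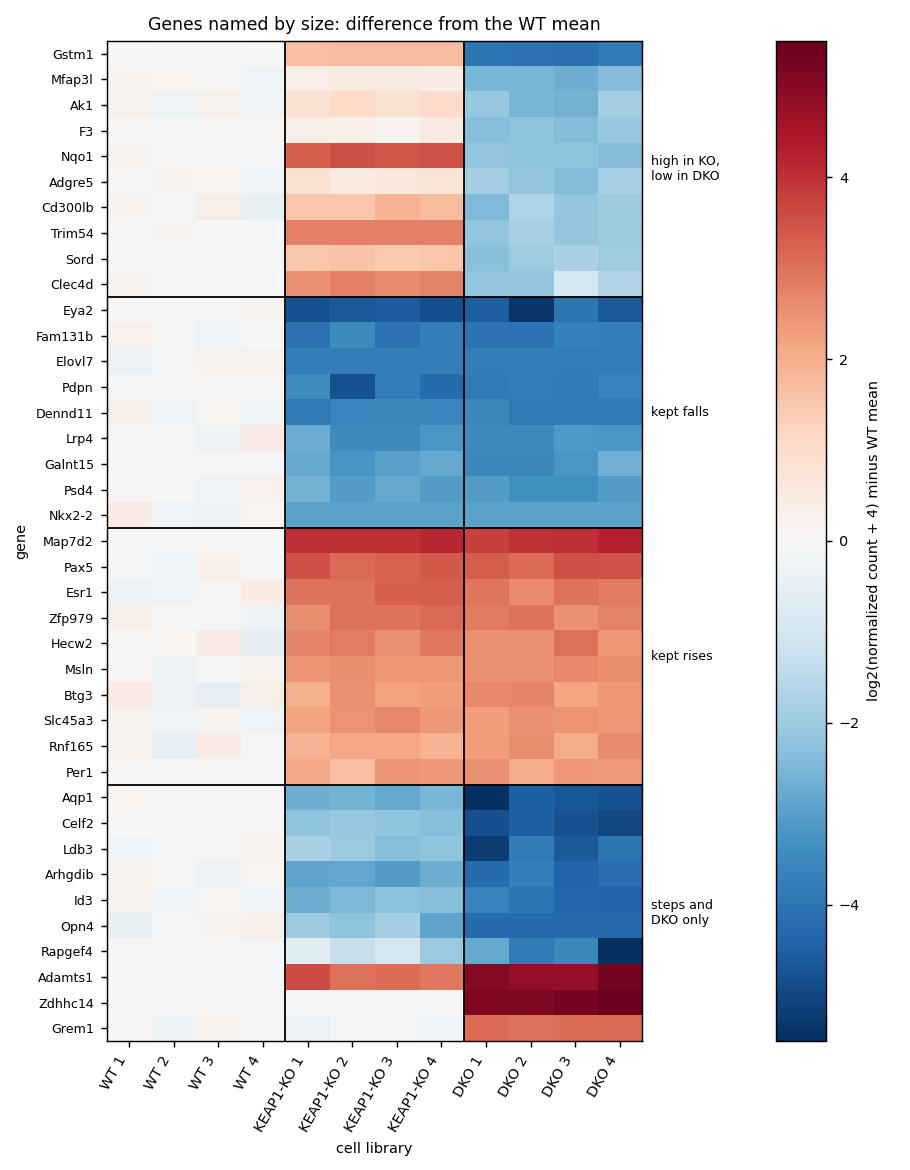
Difference of each cell library from the WT mean, in log2(normalized count + 4), for the genes named by size, 1 row for each gene and 1 column for each of the 12 cell libraries. Genes of the first block are high in KEAP1-KO and low in DKO cells, genes of the kept blocks have alike values in both edited lines, and Zdhhc14 and Grem1 depart from 0 in the 4 DKO libraries alone.

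Of 26 tested genes of the ATF4 response to amino acid stress and of serine synthesis, 12 (46.2%) were called higher in DKO cells, against 13.0% of rows with a symbol, 3 were called lower and 11 were not called, with a median of 0.18. Atf3, a stress-induced transcription factor (processed transcript), had 5.85, 5.94, 5.75 and 5.85 in WT cells, a KEAP1-KO mean of 8.20 and 8.77, 8.63, 8.82 and 8.95 in DKO cells. It was the highest of the list, and rose by 2.95 (adjusted p = 4.4e-10, limma, with a standard error of 0.0866). Ddit3, which encodes CHOP (protein coding transcript), had 7.45, 7.07, 7.29 and 7.19 in WT cells and 8.89, 8.94, 8.93 and 9.01 in DKO cells, and rose by 1.69. For most of the other members named here KEAP1-KO cells lay below WT and DKO cells above it. Trib3, a pseudokinase that restrains ATF4, had 10.01, 9.75, 9.84 and 9.92 in WT cells, 8.75, 8.89, 8.76 and 9.01 in KEAP1-KO cells and 10.65, 10.57, 10.62 and 10.63 in DKO cells. Sesn2, the amino acid transporters Slc7a5 and Slc3a2, the glutathione-degrading Chac1, asparagine synthetase Asns and Gdf15 rose by 0.99, 0.82, 0.58, 0.62, 0.59 and 0.56, and Atf4 itself (retained intron) by 0.24, a call that was lost without the variance trend. The 3 lower rows include Slc7a3, a cationic amino acid transporter, with -0.97. In tumors the list had no row called higher in DKO (Experiment B) than in WT (Experiment A) and 9 of 26 called lower, against 6.74% and 9.33% of all rows with a symbol tested there.

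Of 26 tested proliferation genes, 15 (57.7%) were called lower, against 13.2% of rows with a symbol, 4 were called higher (Mcm5, Ccnd1, Rrm2 and Ccne1) and 7 were not called, with a median of -0.36. The calls of Mcm5 and Ccnd1 were lost without the variance trend. Cyclin B1, Ccnb1 (retained intron), had 12, 11.74, 11.80 and 11.73 in WT cells, 10.91, 11.20, 11.14 and 11.18 in KEAP1-KO cells and 10.96, 10.99, 10.93 and 10.95 in DKO cells. The mitotic checkpoint genes Bub1b and Bub1 fell by 0.81 and 0.63, the replication clamp Pcna by 0.68, Cenpe by 0.67 and Aurkb by 0.53. Myc (protein coding transcript) had 4.92, 5.38, 5.27 and 5.52 in WT cells and 3.78, 4.23, 4.45 and 3.92 in DKO cells, a difference of -1.18 (adjusted p = 0.0012, limma). In tumors 10 of 25 proliferation genes were called lower in DKO than in WT tumors and none higher, against 9.33% and 6.74% of all rows with a symbol there, and the genotypes came from separate experiments and flanks, which cannot be told apart from genotype. In cells, of 14 p53 targets, 3 (21.4%) were called higher and 4 (28.6%) lower, against 13.0% and 13.2% of rows with a symbol. The cell cycle inhibitor Cdkn1a (gene row) had 8.79, 8.71, 8.73 and 8.74 in WT cells and 9.56, 9.58, 9.64 and 9.73 in DKO cells, and rose by 0.89, with a KEAP1-KO mean of 10.28.

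Of 13 epithelial genes tested, Igsf5 and Tmprss11b (15.4%) were called higher and Krt18, Ocln and Krt8 (23.1%) lower, beside 13.0% and 13.2% of all rows with a symbol, with a median of 0.0289. The summed normalized counts of the 16 listed genes in the table were 5230 to 5810 in WT and 3200 to 3400 in DKO libraries, most of it from Krt8, and without Krt8 they were 628 to 823 and 576 to 780. Keratin 18, Krt18 (gene row), had 6.99, 6.73, 7.11 and 7.04 in WT cells, a KEAP1-KO mean of 5.18 and 3.88, 3.75, 3.50 and 4.0 in DKO cells, a 12.3-fold lower normalized count. Its partner Krt8 fell by 0.85 and the tight junction protein occludin, Ocln, by 1.33. Igsf5 and Tmprss11b belong to this list as a junction protein and an epithelial protease, and in DKO tumors they were above WT tumors by 5.26 and 5.07. Of 13 mesenchymal genes, 4 (30.8%) were called higher and 2 (15.4%) lower, with a median of -0.29. The sums of the 15 listed genes in the table were 18800 to 21900 in WT and 7160 to 7540 in DKO libraries, most of it from S100a4, and without S100a4 they were 2440 to 2860 and 2520 to 3110. Snai2, the transcription factor SLUG (gene row), had 7.84, 7.79, 7.77 and 7.85 in WT cells, 6.76, 6.84, 6.78 and 6.75 in KEAP1-KO cells and 9.72, 9.72, 9.87 and 9.90 in DKO cells. The 3 groups do not overlap, and DKO cells were 4.03-fold above WT (difference 1.99, adjusted p = 5.6e-10, limma). The matricellular protein Sparc (retained intron) had 9.63, 9.62, 9.62 and 9.70 in WT cells and 6.49, 6.61, 6.79 and 6.72 in DKO cells, and S100a4 (protein coding transcript) fell by 2.0. Of 24 matrix genes, 5 (20.8%) rose, among them Fbn1 (2.85), Col3a1 (1.65) and Mmp14 (1.49), and 5 (20.8%) fell, among them Thbs2 (-2.28) and Col6a3 (-1.50).

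Among genes that act between tumor and immune cells, the shares called in the MHC class I, interferon and chemokine lists (0% to 10% higher and 10% to 16.7% lower) were near or below the 13.0% and 13.2% of all rows with a symbol. The PD-L1 gene Cd274 (gene row) had 3.83, 4.26, 4.42 and 4.79 in WT cells and 5.83, 5.56, 4.97 and 5.67 in DKO cells, and was higher by 1.18 (adjusted p = 0.0033, limma, with a standard error of 0.233). Its KEAP1-KO mean was 5.49. Of 8 checkpoint ligands tested, 2 (25%) were called higher and 1 (12.5%) lower, beside 13.0% and 13.2% of all rows with a symbol. Besides Cd274, galectin 9 (Lgals9) was higher, by 0.75, and Cd276 was lower, by 0.99. Of 12 MHC class I genes, B2m and Psmb9 were called lower and the transactivator Nlrc5 higher. B2m (gene row) had 12.59, 12.44, 12.45 and 12.45 in WT cells and 11.93 to 12.04 in DKO cells, a difference of -0.51, with a KEAP1-KO mean of 12.11. Of 10 interferon response genes, 1 was called, Bst2 (gene row), which fell by 1.52 and had a KEAP1-KO mean of 8.08 beside 7.86 in WT cells. Of 20 chemokines, cytokines and growth factors, Ptgs2 and Tgfb2 were called higher and Csf1, Il33 and Tgfb3 lower. Cyclooxygenase 2, Ptgs2 (protein coding transcript), had 9.29, 9.21, 9.19 and 9.28 in WT cells and 10.43, 10.39, 10.47 and 10.41 in DKO cells, and the macrophage growth factor Csf1 (retained intron) fell by 1.47. The call of Tgfb3 was lost with voom weights. The call of Il33 was lost without WT library 1, 2 or 4 or DKO library 1, 2 or 4 (-0.88 to -0.76), and that of Tgfb2 without WT library 1, 2 or 4 or DKO library 1, 2 or 3 (0.61 to 0.84). With only the 2 groups and with voom weights both calls were lost (Il33 at -2.33 and Tgfb2 at 0.90 with voom), and that of Il33 was lost with the replicate block and that of Tgfb2 without a filter. That of Psmb9 was lost without WT library 1 or 3 or DKO library 3 or 4 (-1.47 to -1.14), without a filter and with a pseudocount of 0.4 (-1.99).

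In lists of growth signalling and metabolism the shares called lower and higher are read against 13.2% and 13.0% of rows with a symbol. Ksr2, a scaffold of the MAPK cascade (gene row), had 7.65, 7.62, 7.51 and 7.56 in WT cells, 2.30, 3.06, 2.31 and 2.74 in KEAP1-KO cells and 3.44, 3.86, 4.05 and 3.44 in DKO cells. It fell by 3.89 (adjusted p = 9.6e-08, limma) and differed also between the edited lines. Of 15 genes of MAPK feedback, 7 (46.7%) were called lower, including Dusp4 (-0.94), and 4 (26.7%) higher, including Spry2 (0.77) and Spry4 (0.61). Of 16 cholesterol and fatty acid genes, 5 (31.2%) were called lower, among them Idi1 (-0.93), Acss2 (-0.89), Fdps (-0.64) and Hmgcs1 (-0.47), and none higher. In tumors 6 of the 16 were called higher in DKO than in WT tumors and none lower, against 6.74% and 9.33% of all rows with a symbol. Of 23 glycolysis and hypoxia genes, with a median of 0.000375 and shares near those of all rows, 5 (21.7%) were called lower, with Pdk1 (-1.36) and Egln3 (-1.09) the lowest, and 4 higher, with Ndrg1 (0.96) the highest. The call of Ndrg1 was lost without WT library 1 (0.84) or 4 (0.90), or DKO library 2 (0.86) or 4 (0.91). Bmp7 (retained intron), a growth factor, had a WT mean of 7.34, a KEAP1-KO mean of 3.63 and a DKO mean of 6.04, so it had not regained the WT level (difference -1.30, adjusted p = 1.3e-05, limma). Clusterin (Clu) showed the same order with a difference of -0.94, and Calr3, higher in KEAP1-KO cells, was still 0.74 above WT. Of 9 imprinted genes tested, Kcnq1ot1 and Phlda2 (22.2%) were called higher and Igf2r (11.1%) lower, by a difference of -1.29. The call of Kcnq1ot1 was lost with quantile normalization, without the variance trend, with voom weights and with the replicate block.

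**Figure D3:**
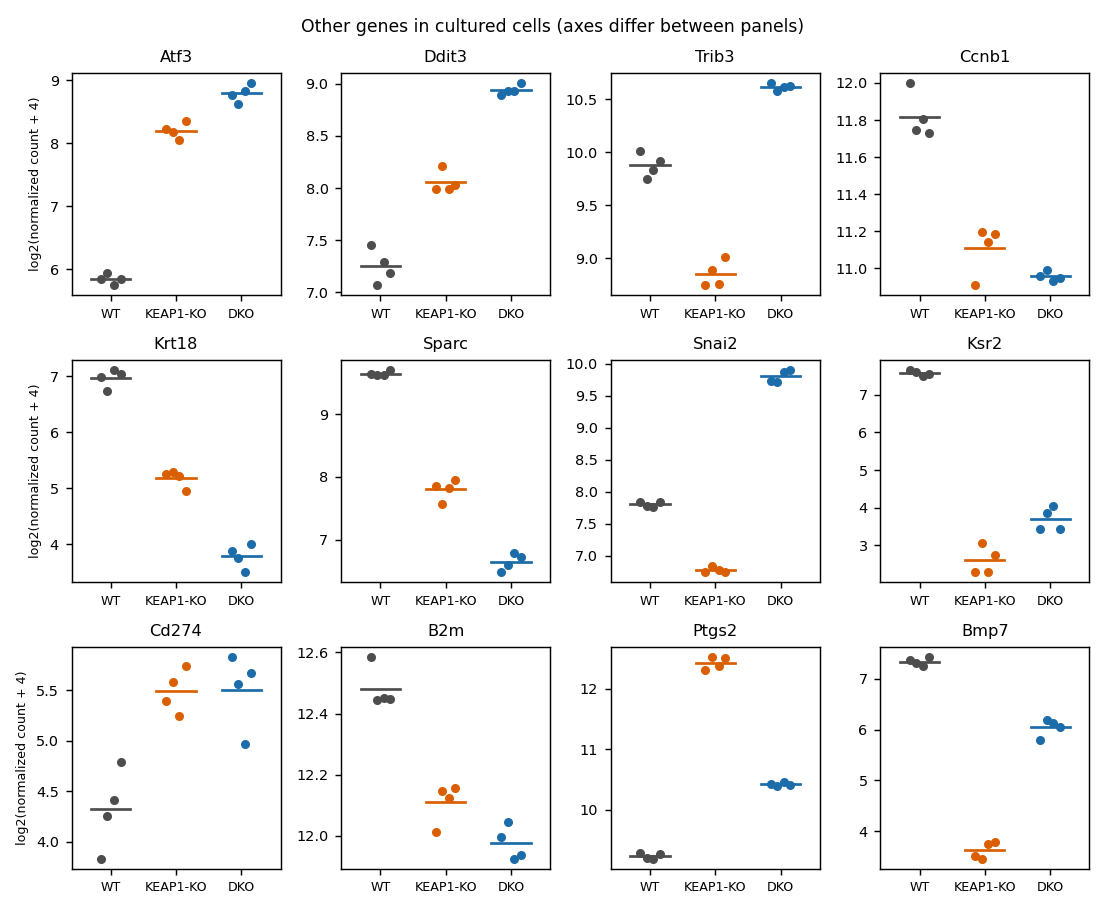
Log2(normalized count + 4) of 12 genes outside the NRF2 target lists in each of the 4 WT, 4 KEAP1-KO and 4 DKO cell libraries, with 1 point for each library and a bar at the group mean. Atf3, Ddit3 and Snai2 are highest in DKO cells, Krt18 and Sparc are lowest there, and Trib3 is lowest in KEAP1-KO cells.

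**Figure D4:**
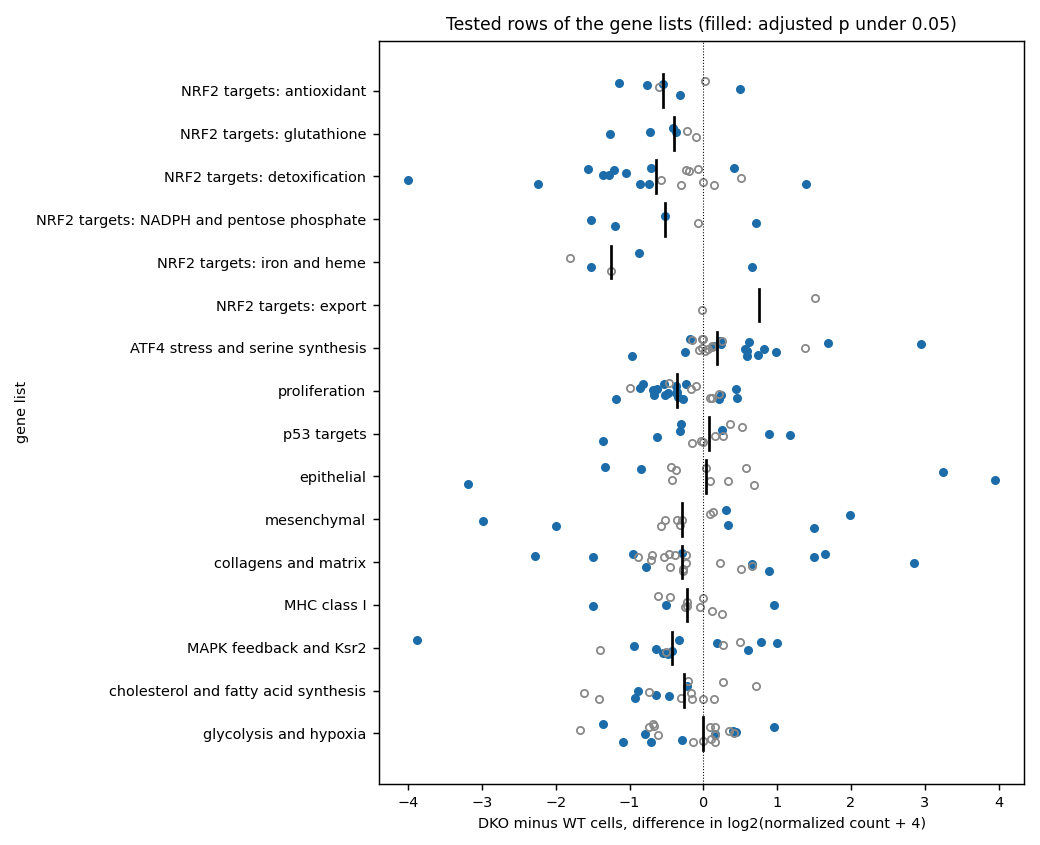
Log2 difference of DKO from WT cells for each tested row of 16 gene lists, with filled points for rows called at an adjusted p under 0.05, open points for the others and a vertical tick at the list's median. Rows of the NRF2 target lists lie mainly below 0 (median -0.55 over all 6 lists), proliferation genes have a median of -0.36 and ATF4 genes a median of 0.18.

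Of 21 leukocyte markers, 17 are in the table and 3 were tested, and their summed normalized counts were 20.5 to 52.9 in WT and 57.2 to 63.5 in DKO libraries, with 7 of the 17 rows at 0 in each group. Cd68, a lysosomal protein, was called higher (1.12). The sums of 8 endothelial markers were 9.66 to 14.0 in WT and 48.2 to 67.4 in DKO cells, among which Cdh5 had a WT mean of 2.37 and a DKO mean of 5.54, while Pecam1, Kdr and Vwf were not called. Fibroblast markers summed to 480 to 590 in WT and 555 to 650 in DKO cells. The part of other cells in any difference was not tested. Of the lung lineage markers, Nkx2-1, Sftpa1, Sftpb, Sftpc, Sftpd and Scgb1a1 are not listed in the table, nor is the epithelial marker Epcam, whereas Krt8 had 11.35 or more in every cell library. Foxa1 (gene row) was called higher by 1.48.

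The difference between DKO and WT cells varied with chromosomal position. Each chromosome was divided into 10 parts with equal numbers of tested rows with a symbol, 34 to 106 rows a part, and the median difference of DKO from WT cells was taken in each of the 200 parts. In 138 parts the median lay within 0.2 of 0, in 5 it was under -0.4 and in 7 it was over 0.4. Part 10 of chromosome X had the lowest, -1.03, with 24 of 35 rows called lower and 3 higher, and KEAP1-KO cells had a median of -0.90 there. It holds Pir, which fell, and Map7d2 and Yy2, which rose. On chromosome 19, which had a median of -0.27 and 127 of 432 rows called lower against 32 higher, parts 9 and 10 were at -0.73 each. In part 3 of chromosome 4, which holds Txn1 and Ptgr1, 29 of 67 rows were called lower and 2 higher, with a median of -0.47. Chromosome 13 had 152 of 611 rows called lower and 27 higher, with a median of -0.20. Over all rows with a symbol 13.2% were called lower and 13.0% higher.

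Higher RNA medians were seen on chromosomes 16, 18 and 1, among others. Part 9 of chromosome 6 and part 9 of chromosome 11 (0.35 each) came near the highest part of chromosome 1 (0.36). Copy number was not measured. Chromosome 18 had a median of 0.28, with 111 of 349 rows called higher and 11 lower. Its part 5 had a median of 0.85, with 21 of 35 rows called higher and none lower. Parts 4 and 5 hold the clustered protocadherins, cell adhesion proteins of neurons, of which 25 of 31 tested rows (Pcdhb and Pcdhg) were called higher and none lower, against 13.0% and 13.2% of all rows with a symbol, with a median of 0.93. Of the 31 rows, 25 lie in part 5, where 20 were called higher, so these rows make up most of that part. KEAP1-KO cells had a median of 0.36 for the same rows. Protocadherin genes share sequence, and their rows may share reads. Parts 7 to 9 of chromosome 16 had medians of 0.50, 0.41 and 0.43, and chromosome 1 had 183 of 885 rows called higher and 51 lower. DKO tumors of Experiment B against WT tumors of Experiment A, which share no library with the cells, had medians of the same sign in all 12 parts past 0.4. Across the 200 parts the Pearson correlation of cells with tumors was 0.888, and across 20 chromosomes 0.954, given as descriptions, since the same lines and genes enter both.

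Of the NRF2 targets, Pir, Txn1 and Ptgr1 lie in parts with medians under -0.4, and Gstm1, Gstm2 and Gclm in part 8 of chromosome 3, with a median of -0.31. After each library was centred on the median deviation of each part, a setting added after the data were examined, Pir differed by -0.64, Txn1 by -0.74, Ptgr1 by -0.95, Nqo1 by -2.40 and Fth1 by -1.46, and all 5 were still called. Gclm, at -0.86, was no longer called (adjusted p = 0.050, limma), and 20 of the 45 NRF2 targets were called lower and 3 higher. Dusp5, called lower by 0.65 in the main analysis and located in part 10 of chromosome 19, was at 0.13 after centring and not called. Other called genes that moved by over 1.5 times were Gstm2 (-0.33), Srxn1 (-0.36), Akr1b8 (0.78), B2m (-0.29), Ccnb1 (-0.51), Cenpe (-0.44), Hmgcs1 (-0.18), Slc7a5 (0.52), Spry2 (0.45) and Spry4 (0.38), all still called, and Osgin1 (0.24), Mcm5 (0.13) and Rrm2 (0.21), which were no longer called. The calls of Gstp1 (-0.64), Me1 (0.71), Il33 (-0.72) and Tgfb2 (0.69) were lost as well. Whether position has a part in any single gene's difference was not tested.

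**Figure D5:**
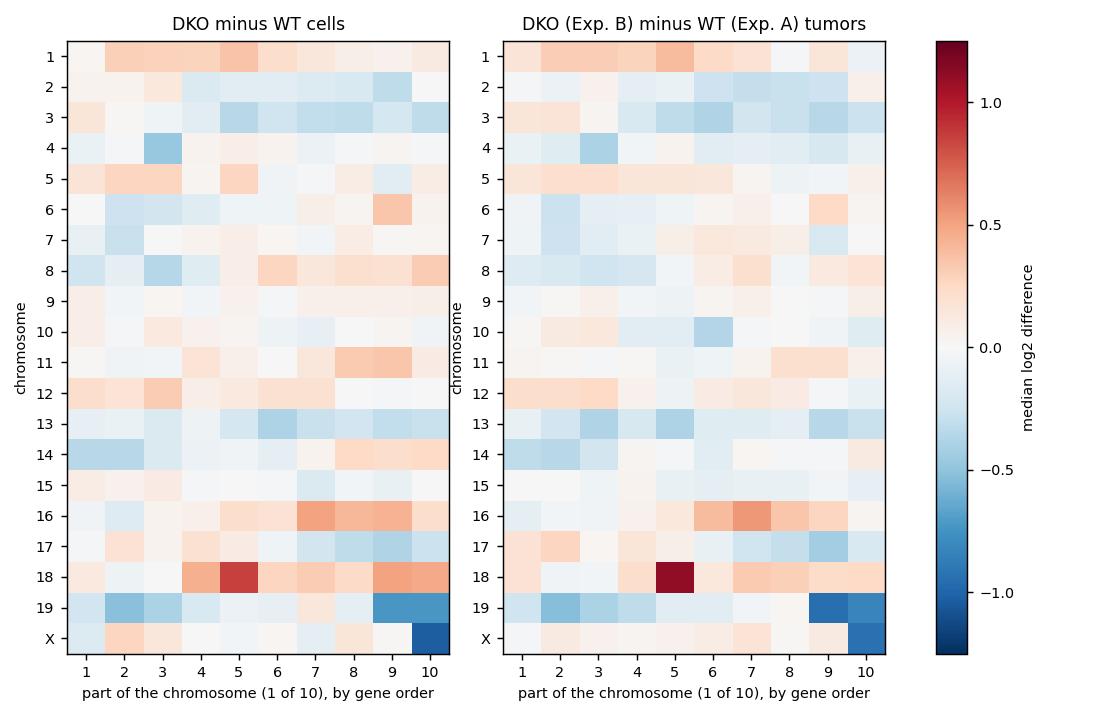
Median log2 difference in each of 10 parts of each chromosome by gene order, for DKO against WT cells on the left and DKO tumors of Experiment B against WT tumors of Experiment A on the right. Part 10 of chromosome X (-1.03 in cells and -0.93 in tumors) and part 5 of chromosome 18 (0.85 and 1.11) stand out in both panels.

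Much of the difference between the cultured lines was also present in tumors. Of 12821 rows tested in both, 1746 were called lower in DKO cells and 1354 in DKO tumors, and 786 were shared, 45.0% of the former and 58.1% of the latter, against 10.6% and 13.6% of all rows. For the higher direction 493 were shared, 29.0% of 1701 in cells and 50% of 986 in tumors, against 7.69% and 13.3% of all rows. In opposite directions, 26 rows were lower in cells and higher in tumors and 66 were higher in cells and lower in tumors. The sign was the same for 79.5% of the rows called in cells and for 63.2% of all rows. Of 44 NRF2 targets tested in tumors, 18 were called lower in DKO than in WT tumors and 1 higher, against 9.33% and 6.74% of rows with a symbol, and the rest were not called. Among the 18, Gstm1, Nqo1, G6pdx, Fth1, Gclm and Txn1 were also lower in DKO than in WT tumors, by 1.45, 0.92, 1.11, 0.82, 1.77 and 1.26, whereas Hmox1, higher in DKO cells, was lower in DKO tumors by 1.21. In tumors the comparison crosses 2 experiments and flanks, and tumor tissue holds host cells as well, so fewer cells of a type and less RNA per cell cannot be told apart.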

How the data were processed

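RNA-seq covered 12 cell libraries, 4 for each genotype, and 16 tumor libraries. The submitters' processing notes name Salmon, and the study's methods name iDEP and GENCODE annotation. The authors deposited 1 table of 43143 rows (34021 transcripts and 9122 genes), whose values are log2(normalized count + 4). The design had allowed for TPM, which the values are not. Rows that reached 5 normalized counts in 4 or more cell libraries were fitted with limma 3.58.1 in R 4.3.3 (lmFit, contrasts.fit, eBayes with a trend) on all 12 cell libraries, and calls use Benjamini-Hochberg adjustment over all 29744 rows at 0.05. Tumors were fitted in the same way on their own, without a term for the host mouse. The study placed WT and KEAP1-KO cells (Experiment A), or KEAP1-KO and DKO cells (Experiment B), in opposite flanks of the same mice. Tumors of an experiment may therefore be paired by host, and a fit with that pairing was not run. Where nothing else is stated, an adjusted p is from the limma fit described here. Folds are ratios of mean normalized counts, and against a group without reads they use a floor of 3 reads over the group, which covers counting error only. The script was tested on simulated data.

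Genes were named by rule: edited genes, members of the lists, the 15 highest and 15 lowest differences among called rows without overlap, the 10 lowest of those higher in KEAP1-KO cells, and the 10 largest kept rises and falls. Members of the tumor-defined set and genes of the alternatives were chosen after their values were seen. Members and lists were chosen with earlier results of these data known. Chromosome order came from GENCODE vM21, which held 96.95% of the transcript rows, and promoters from RefSeq. Filters, pseudocount, normalization, variance model, groups, threshold, replicate block and left-out libraries were varied. Rows without a symbol were tested but not named. Guide sequences were not used here, and some genes that the rule names are not reported here.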

Additional observations from a re-analysis of the deposited data

Results flagged for a closer look

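In 24 of 320 groups of 4 libraries looked at among the named genes, 1 library lay far from the other 3, a gap that chance gives in about 1 in 20 groups. In WT library 1 these were Gstm2 (7.33), Gsta1 (3.10), Mgst1 (2.65), Srxn1 (10.97), Yy2 (5.60), Bub1 (11.59) and B2m (12.59). WT library 2 held Prdx6 (9.53), and WT library 3 held Mafg (4.26) and Arhgdib (7.08). In WT library 4 they were Sparc (9.70), Fbn1 (3.88) and Col6a3 (6.07). In the DKO cells, library 1 held Dennd11 (2.31), library 2 held Gstp1 (6.90), Tmprss11b (6.41), Ocln (6.70) and Krt8 (11.39), library 3 held Keap1 (7.47), Gsta1 (2.34) and Txn1 (11.40), and library 4 held Aldh3a1 (2.51), Thbs2 (3.55) and Vwf (2.28). Fbn1 had no read in the other 3 WT libraries.

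For 7 named genes every DKO cell library lay on one side of the WT cells and every DKO tumor (Experiment B) on the other side of the WT tumors (Experiment A). Hmox1 differed by 0.66 in cells and -1.21 in tumors, Ndrg1 by 0.96 and -0.63, Gdf15 by 0.56 and -0.53, Slc3a2 by 0.58 and -0.41 and Atf4 by 0.24 and -0.62. In the other direction, Aox1 differed by -1.02 in cells and 0.51 in tumors and Acss2 by -0.89 and 0.41. The difference between cells and tumors was not tested.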

How the results depend on the processing

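The count of rows called (5254) stayed between 3984 and 5322 over changes of filter, pseudocount, normalization, groups, variance model and rows with a symbol, and was 4646 with the replicate number as a block. Leaving out 1 library gave 4352 to 4720 calls, 2073 to 2369 higher and 2279 to 2460 lower, and 22 to 23 NRF2 targets lower and 4 to 6 higher. With the replicate block 21 NRF2 targets were lower and 4 higher. Same-numbered DKO and WT libraries correlated at 0.0109 to 0.033 in their deviations from the group means, each DKO library best with its own number. These correlations are small, and whether same-numbered libraries share more than a number was not tested. Among gene rows only, a setting added after the data were examined, 2214 rows were called (1118 higher, 1096 lower), with 5 NRF2 targets lower and 1 higher. That setting leaves out targets whose row is a single transcript, such as Gstm1, Gclm, G6pdx and Fth1. A log2 difference of at least 1 left 1500 calls (727 higher, 773 lower), and an unadjusted p under 0.01 with a difference over 2 left 258 (119 higher, 139 lower). Centring within the 10 parts of each chromosome, also added later, gave 4043 calls and 3 NRF2 targets higher, and reversed Dusp5 (0.13); the cause was not tested. Of 160 named genes, 140 stayed on their side of the threshold under every alternative run. Of the 145 called genes 1 changed sign (Dusp5), and of those not called 5 did. A pseudocount of 0.4 moved 24 called genes by over 1.5 times. Depth limits rows with few reads, whose differences the pseudocount of 4 shrinks, and libraries that may be technical replicates limit every p.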
